A study of Mus musculus with 6 samples.

Results

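The genes described here move water, ions, bicarbonate and carnitine across the epithelium of the epididymis, the duct in which sperm mature after leaving the testis. They were chosen by name as Aqp1, Aqp3, Aqp9, Cftr, Slc9a3, Slc4a4, Car2, Car4, Slc22a5 and Slc26a4, and all 10 were found among the 36842 genes of the deposited expression table. The labels give the RNA as that of GC-2spd(ts), a line of immortalised spermatocytes from the mouse, as wild type and with testis as its source. In the Sal_CP group (3 libraries) cells were given 2 mM cyclophosphamide, a DNA-alkylating drug that harms germ cells, together with 100 µM salidroside, a glycoside of Rhodiola plants, for 24 h. In the CP group (3 libraries) cells were given 2 mM cyclophosphamide alone for 24 h. By the labels, all 6 libraries thus carry cyclophosphamide and come from a single line, and untreated cells are not analysed here. The design text asks how salidroside raises GPX4, an enzyme that repairs oxidised lipids. The comparison below asks whether the transporters differed with salidroside.

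The epididymal epithelium reabsorbs fluid that leaves the testis and keeps the lumen acidic, low in bicarbonate and rich in carnitine while sperm mature. Water follows solutes through aquaporins. Sodium-proton exchange, bicarbonate transport and carbonic anhydrases set the luminal pH together with the proton pumps of clear cells, and principal cells take up carnitine from blood. Spermatids and sperm have transporters of their own, among them Slc22a16, Slc9c1 and Slc26a8.

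The RNA held transcripts that the label of a spermatocyte line does not cover. Of 8 spermatocyte markers, 2 reached a mean of 1 FPKM (a fragment count divided by transcript length and by library size), and their sum lay between 5.98 and 9.19 FPKM in Sal_CP and between 3.16 and 5.33 FPKM in CP. The 8 spermatid and sperm markers summed to 46443 to 76465 FPKM in Sal_CP and to 32254 to 53643 FPKM in CP. Markers of epididymal principal cells summed to 2106 to 2908 FPKM in Sal_CP and to 4314 to 4558 FPKM in CP, without overlap, and most of this was Crisp1, a secreted epididymal protein. Of the 16 principal cell markers 15 were in the table and 8 reached a mean of 1 FPKM, while Lcn9, an epididymal lipocalin, was listed at 0 in every library. In bulk RNA, fewer cells of a type and less RNA per cell cannot be told apart.

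FPKM allow levels of different genes to be compared, but the number of fragments behind a value was not given. It could be approximated, because low values of FPKM times transcript length lay near multiples of 1 step per library. Between 52.4 and 54.1% of them were within 0.15 of a step, where an even spread would give 30%. The steps imply about 16600000 to 22200000 fragments in Sal_CP libraries, with replicate 1 highest, and 17000000 to 18500000 fragments in CP libraries. Steps were searched from 0.04 FPKM times kilobase upward, taken as read pairs, a range set after a wider search had settled on smaller steps that would imply more fragments. Since that choice is unproven and many values lay off the steps, these figures serve only to judge how many fragments stood behind a low value.

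By mean FPKM over the 6 libraries, Car2 was the most abundant of the 10 at 152 FPKM, above 99.3% of all genes detected in any library. Aqp9 (10.6 FPKM) and Slc22a5 (10.6 FPKM) followed and were not separable, each being the higher of the pair in 3 of 6 libraries. Next came Car4 at 2.92, Aqp1 at 0.993 and Slc9a3 at 0.783 FPKM, whose ranges over libraries overlapped from neighbour to neighbour. Aqp3 (0.379 FPKM), Slc4a4 (0.376 FPKM) and Cftr (0.371 FPKM) had nearly the same mean and overlapping ranges. Slc26a4 was lowest at 0.0499 FPKM and was listed at 0 in 2 libraries. Ranges of neighbours in this order stood apart at 3 places, between Car2 and Aqp9, between Slc22a5 and Car4, and between Cftr and Slc26a4.

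**Figure D1:**
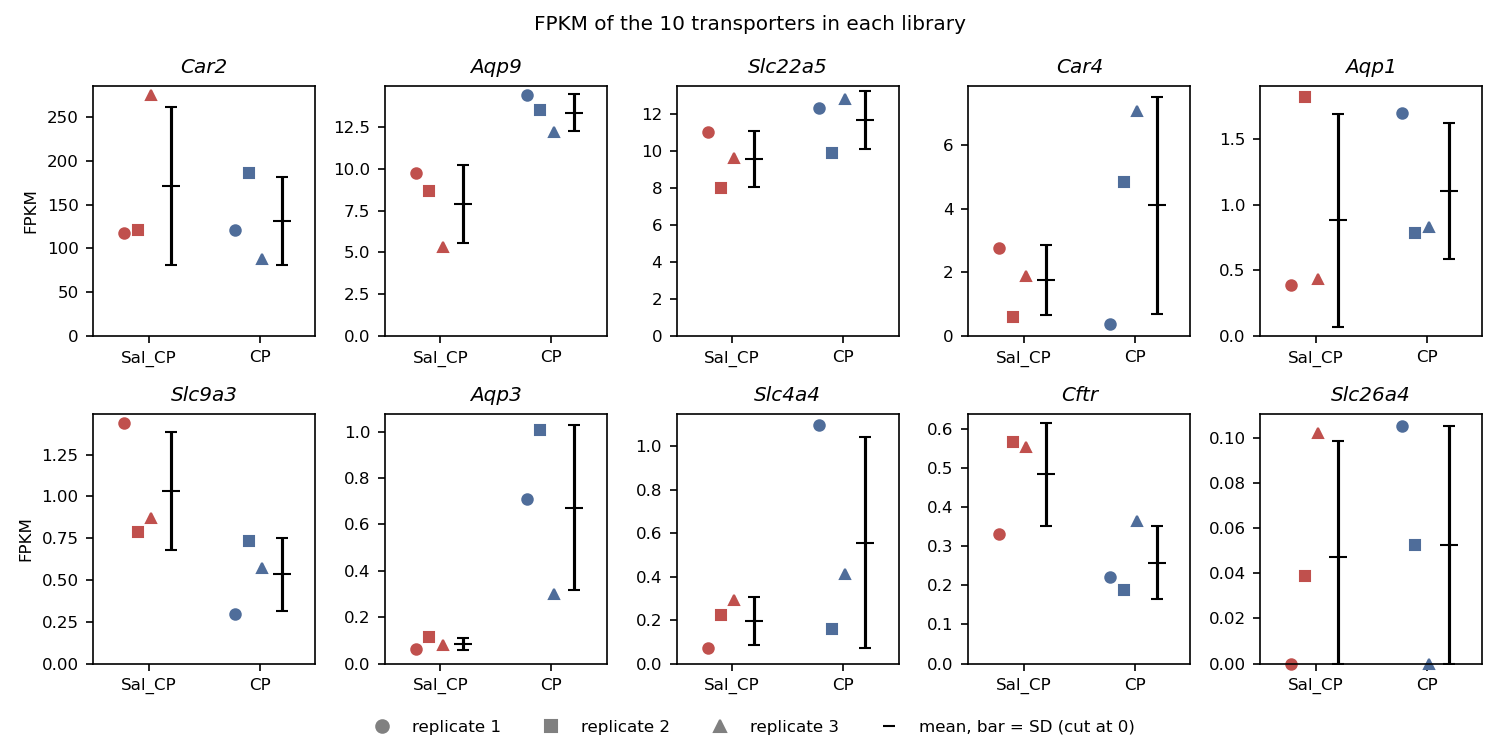
FPKM (y axis, each from 0) of the 10 transporters in the 3 Sal_CP libraries (left) and the 3 CP libraries (right) of each panel, ordered by mean level, with the mean and SD beside the points. Aqp9 and Aqp3 were lower in every Sal_CP library than in every CP library, and Slc9a3 was higher, while the libraries overlapped for the other 7 genes.

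Aqp9 and Aqp3 had lower values and Slc9a3 higher values in all 3 Sal_CP libraries than in any CP library, but none of the 10 transporters passed the test across all genes. Only Car2, Aqp9, Slc22a5 and Car4 reached the mean of 1 FPKM needed to be tested. Of these 4, 0 passed limma at an adjusted p below 0.05, where 0.0735% of the 12241 genes tested did, and 1 (Aqp9) had an unadjusted p below 0.05, where 10.7% of all genes did and 6.77% did with lower values in Sal_CP. Libraries of the groups did not overlap for 3 of the 10 transporters, 2 lower and 1 higher in Sal_CP. Among the 32375 genes detected in any library 12.1% did not overlap, 6.93% being lower and 5.17% higher in Sal_CP, and among the 21824 with a mean of at least 0.1 FPKM, which hold 9 of the transporters, 16%. The labels do not say whether replicate libraries stem from different cultures, and the p-values therefore reflect the spread among these 6 libraries, which may be technical.

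Aquaporins are membrane channels for water, and aquaglyceroporins also pass glycerol and other small solutes. Aqp9 (chr9:71110659-71168682 on GRCm38, minus strand, 10 transcripts) is an aquaglyceroporin of the luminal membrane of principal cells. It stood at 9.75, 8.68 and 5.30 FPKM in Sal_CP libraries, against 14.4, 13.5 and 12.2 FPKM in CP libraries. Every Sal_CP library was below every CP library, and Sal_CP replicate 3 was the lowest. The means were 7.91 ± 2.32 FPKM in Sal_CP libraries and 13.4 ± 1.13 FPKM in CP libraries (SD, n = 3 each), and limma on the log2(FPKM + 1) scale gave a log2 change of -0.73 (SE 0.29, adjusted p 0.444). The two-sided exact permutation p was 0.1, the smallest that 3 against 3 libraries can give. In the authors' deposited table Aqp9 had a ratio of 0.591, a p-value of 0.0361 and a q-value of 0.422. Gm32511, an antisense gene that overlaps Aqp9, stood at 0.799, 0.590 and 0.424 FPKM in Sal_CP libraries and at 1.26, 0.949 and 0.617 FPKM in CP libraries. Whether the authors' counting used strand is not given in the sources used here, so reads of the pair may be mixed.

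The summed principal cell markers, mostly Crisp1, were lower in Sal_CP as Aqp9 was, with 6 of the 8 markers tested below 0 and 2 above, Adam7 (log2 change 0.28) and Cst8 (0.56). Per 1000 FPKM of that sum, Aqp9 stood at 3.35, 3.27 and 2.52 FPKM in Sal_CP libraries, against 3.35, 3.13 and 2.68 FPKM in CP libraries. This ratio, chosen after the values were seen, averaged 3.05 ± 0.461 in Sal_CP libraries and 3.05 ± 0.344 in CP libraries (SD, n = 3 each), and the groups overlapped. Among the markers, Akr1b7 and Defb42 passed the test, with log2 changes of -3.24 (adjusted p 0.0152 in limma) and -2.52 (adjusted p 0.0319). Both calls ended in several other settings, among them no filter, a mean of at least 0.1 FPKM, median of ratios rescaling and leaving out Sal_CP replicate 1, each with 0 genes called over the whole table. Of 9 epithelial junction and keratin genes, 7 were lower in every Sal_CP library than in every CP library, where 10% of all tested genes were. That list was chosen with earlier results of these data known, so its count is a description. Their sum was 547 to 691 FPKM in Sal_CP and 603 to 806 FPKM in CP and overlapped, its most abundant member being Cldn3, a tight junction protein with a log2 change of 0.49 (adjusted p 0.54). Beyond the ratio, the part of these markers in the Aqp9 values was not tested.

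Aqp3 (chr4:41092722-41098183, minus strand), an aquaglyceroporin of basolateral membranes in many epithelia, was rare. Its values were 0.0622, 0.114 and 0.0807 FPKM in Sal_CP libraries, against 0.711, 1.01 and 0.298 FPKM in CP libraries. All 3 Sal_CP libraries were below all CP libraries, and CP replicate 3 was the nearest to them. The means were 0.0856 ± 0.0261 FPKM in Sal_CP libraries and 0.672 ± 0.357 FPKM in CP libraries (SD, n = 3 each), a ratio of 0.127. Over its longest listed transcript these values correspond to roughly 8 fragments in the Sal_CP libraries together and 63 in the CP libraries. Few fragments thus stand behind the Sal_CP values.

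On the log2(FPKM + 1) scale, which understates changes of low genes, the difference in Aqp3 was -0.60 with a two-sided exact permutation p of 0.1. With a pseudocount of 0.1 and a mean of at least 0.1 FPKM, a setting chosen after the values were seen, limma gave -1.95 (SE 0.52) and an adjusted p of 0.38. Aqp3 reached that mean only through the CP libraries, so its size there is a description. With these settings 0 (0%) of the 21824 genes tested passed, and 2083 had an unadjusted p below 0.05. The authors' deposited table gave Aqp3 a p-value of 0.000992 and a q-value of 0.101, and marked 0 of the 10 transporters among its 196 significant genes. Per 1000 FPKM of principal cell markers, a scale chosen after the values were seen, Aqp3 stood at 0.0214, 0.0429 and 0.0383 FPKM in Sal_CP libraries. In CP libraries it stood at 0.165, 0.234 and 0.0654 FPKM, again without overlap. The marker sum differed far less between groups than Aqp3 did, so this outcome was largely set beforehand. The part of these markers in the Aqp3 values was not tested. Basal cell markers, of the cells that carry Aqp3 in rat epididymis, summed to 3.42 to 6.07 FPKM in Sal_CP and 3.52 to 6.68 FPKM in CP and overlapped, but its members differed in direction. Krt14 was lower (log2 change -0.76) and Krt15 higher (0.57) in every Sal_CP library than in every CP library, and neither passed limma (adjusted p 0.464 each). Krt14 reached the mean of 1 FPKM needed to be tested only through CP replicate 3 (3.64 FPKM), so its size is a description.

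Aqp1 (chr6:55336432-55348555, plus strand) is a water channel of efferent ducts, endothelium and red cells. It stood at 0.387, 1.82 and 0.435 FPKM in Sal_CP libraries, against 1.70, 0.788 and 0.828 FPKM in CP libraries. Sal_CP replicate 2 and CP replicate 1 were high in their groups, and the groups overlapped. The means were 0.880 ± 0.812 FPKM in Sal_CP libraries and 1.11 ± 0.517 FPKM in CP libraries (SD, n = 3 each; two-sided exact permutation p = 0.6). Erythroid markers summed to 22.6, 77.1 and 16.5 FPKM in Sal_CP libraries and to 45.2, 62.8 and 17.5 FPKM in CP libraries. Sal_CP replicate 2 was thus the highest library for both Aqp1 and these markers. The next highest differed, being CP replicate 1 for Aqp1 and CP replicate 2 for the markers. Endothelial markers, none of which reached a mean of 1 FPKM, summed to 1.32 to 1.65 FPKM in Sal_CP and 1.599 to 2.27 FPKM in CP. The part of either marker set in the Aqp1 values was not tested.

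Of 9 other aquaporins, only Aqp7 and Aqp11, both known from spermatids, reached a mean of 1 FPKM, and 0 passed. Aqp11 averaged 84.5 ± 21.2 FPKM in Sal_CP libraries and 63.8 ± 17.5 FPKM in CP libraries (SD, n = 3 each), above Aqp1, Aqp3 and Aqp9 in every library, with a log2 change of 0.41 and an adjusted p of 0.575 in limma. Aqp7, an aquaglyceroporin, averaged 7.82 ± 1.91 FPKM in Sal_CP libraries and 5.18 ± 1.62 FPKM in CP libraries, with a log2 change of 0.53 and an adjusted p of 0.485. Their changes lay above 0 while those of Aqp1, Aqp3 and Aqp9 lay below 0. The spermatid markers, 8 of 8 of which also lay above 0 with 0 called, had a median log2 change of 0.47, and their part was not tested.

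Upstream sequence is shown for the transporters whose groups did not overlap, so that their start sites can be set side by side. These are the 250 bases before RefSeq transcription starts on GRCm38.p6, read 5′ to 3′ in gene direction, and Aqp9 has a distal and a proximal start. Capitals mark matches to any of 6 motifs, namely TATAAA on the given strand and, on both strands, the steroid receptor half-site AGAACA, the NF-κB site, the interferon response core, the AP-1 site TGANTCA and the forkhead site TGTTTAC.
Aqp9 distal start (chr9:71163290-71163539, minus strand): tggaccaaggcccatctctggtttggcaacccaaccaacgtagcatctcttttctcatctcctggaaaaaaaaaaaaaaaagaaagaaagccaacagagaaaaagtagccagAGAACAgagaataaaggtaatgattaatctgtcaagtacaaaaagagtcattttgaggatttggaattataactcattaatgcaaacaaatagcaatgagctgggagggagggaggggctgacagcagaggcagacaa
Aqp9 proximal start (chr9:71162634-71162883, minus strand): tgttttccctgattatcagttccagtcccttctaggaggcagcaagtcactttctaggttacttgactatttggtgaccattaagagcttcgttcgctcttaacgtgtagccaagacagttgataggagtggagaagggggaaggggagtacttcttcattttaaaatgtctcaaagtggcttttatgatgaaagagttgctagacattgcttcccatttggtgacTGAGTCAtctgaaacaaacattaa
Aqp3 (chr4:41098184-41098433, minus strand): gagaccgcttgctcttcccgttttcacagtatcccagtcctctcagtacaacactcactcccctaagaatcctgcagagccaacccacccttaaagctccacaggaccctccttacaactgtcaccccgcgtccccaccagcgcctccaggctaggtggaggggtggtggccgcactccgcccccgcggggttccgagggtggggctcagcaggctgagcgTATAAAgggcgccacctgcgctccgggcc
Slc9a3 (chr13:74121163-74121412, plus strand): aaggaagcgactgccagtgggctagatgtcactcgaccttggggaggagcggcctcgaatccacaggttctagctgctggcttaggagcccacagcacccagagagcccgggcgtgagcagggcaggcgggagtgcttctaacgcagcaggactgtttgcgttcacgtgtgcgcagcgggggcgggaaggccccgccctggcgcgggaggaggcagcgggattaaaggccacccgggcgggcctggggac

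Aqp9 held AGAACA 138 bases before its distal start and TGANTCA 24 bases before its proximal start, and Aqp3 held TATAAA 29 bases before its start. The window of Slc9a3 held none of the 6. Over 32851 such windows of mouse genes, 16.1% hold AGAACA, 6.75% TGANTCA and 7.59% TATAAA. The NF-κB site occurs in 0.14% of windows and TGTTTAC in 3.17%, and both were in 0 of the 11 windows found for 9 of the transporters, while the interferon response core, in 2.98% of all windows, was in 1 of them (Slc26a4). The windows of Aqp3 and Slc9a3 were rich in GC (64 and 67.6%, with 14 and 19 CG dinucleotides). Those of Aqp9 were poor in it, with 40.4% and 1 CG at the distal start and 41.6% and 3 at the proximal start, where the median of all windows was 52.4% and 6.

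Slc9a3 (chr13:74121457-74169442, plus strand), the sodium-proton exchanger NHE3 of brush borders, takes up sodium from the lumen of efferent ducts and epididymis in exchange for protons. It stood at 1.44, 0.787 and 0.871 FPKM in Sal_CP libraries, against 0.297, 0.733 and 0.572 FPKM in CP libraries. The groups did not overlap, though Sal_CP replicate 2 lay close to CP replicate 2. The means were 1.03 ± 0.354 FPKM in Sal_CP libraries and 0.534 ± 0.220 FPKM in CP libraries (SD, n = 3 each), a ratio of 1.93. The difference on the log2(FPKM + 1) scale was 0.40 with a two-sided exact permutation p of 0.1. With the lower pseudocount and filter, limma gave 0.86 (SE 0.43) and an adjusted p of 0.528. In the authors' deposited table Slc9a3 had a p-value of 0.0114 and a q-value of 0.31.

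Of 13 other genes of sodium-proton exchange 6 were tested and 0 passed, 4 lying below 0 and 2 above, with a median log2 change of -0.088 where all tested genes had -0.12, and of 0.031 with quantile normalization or 0.035 with rescaling by median of ratios. Slc9c1, an exchanger of sperm, averaged 3.41 ± 0.408 FPKM in Sal_CP libraries and 2.20 ± 1.41 FPKM in CP libraries (SD, n = 3 each; log2 change 0.55, adjusted p 0.485 in limma). Slc9a3 had a lower mean level than Slc9c1. Slc9a3 over Slc9c1 averaged 0.302 ± 0.0947 in Sal_CP libraries and 0.283 ± 0.141 in CP libraries, a ratio chosen after the values were seen, and overlapped.

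Cftr (chr6:18170687-18322768, plus strand), the cAMP-gated chloride and bicarbonate channel, was detected in every library. It stood at 0.331, 0.567 and 0.553 FPKM in Sal_CP libraries, against 0.222, 0.188 and 0.363 FPKM in CP libraries. Sal_CP replicates 2 and 3 were above all CP libraries, and Sal_CP replicate 1 lay among them. The means were 0.484 ± 0.132 FPKM in Sal_CP libraries and 0.258 ± 0.0927 FPKM in CP libraries (SD, n = 3 each; two-sided exact permutation p = 0.2). With the lower pseudocount and filter, limma gave 0.71 (SE 0.44) and an adjusted p of 0.565. The antisense gene Gm15592, which overlaps Cftr, was listed at 0 in all libraries but CP replicate 2.

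Slc4a4 (chr5:88886818-89239653, plus strand), the sodium-bicarbonate cotransporter NBCe1 of basolateral membranes, stood at 0.0735, 0.223 and 0.291 FPKM in Sal_CP libraries, against 1.097, 0.158 and 0.414 FPKM in CP libraries. CP replicate 1 was far above the rest, and the groups overlapped (two-sided exact permutation p = 0.3, n = 3 each). Slc26a4 (chr12:31519827-31559969, minus strand), the anion exchanger pendrin, was listed at 0, 0.0390 and 0.102 FPKM in Sal_CP libraries, against 0.105, 0.0526 and 0 FPKM in CP libraries. Its highest value corresponds to about 5.5 fragments, so no difference was detectable at this depth.

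Of 19 other genes of bicarbonate and anion exchange 18 were in the table, 5 were tested and 0 passed, 3 lying below 0 and 2 above (median log2 change -0.14, and 0.018 after median of ratios rescaling). Slc26a8, an anion transporter of sperm, averaged 3.27 ± 0.441 FPKM in Sal_CP libraries and 2.05 ± 0.938 FPKM in CP libraries (SD, n = 3 each; log2 change 0.53, adjusted p 0.473 in limma). Slc4a2, a widely expressed anion exchanger, averaged 1.23 ± 0.190 FPKM in Sal_CP libraries and 1.78 ± 0.288 FPKM in CP libraries, and its groups did not overlap (log2 change -0.31, adjusted p 0.533 in limma).

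Car2 (chr3:14886273-14900770, plus strand), the cytosolic carbonic anhydrase that turns carbon dioxide into bicarbonate and protons, stood at 118, 121 and 276 FPKM in Sal_CP libraries, against 121, 186 and 87.9 FPKM in CP libraries. Sal_CP replicate 3 was the highest library, CP replicate 2 came next, and the groups overlapped. The means were 172 ± 90.6 FPKM in Sal_CP libraries and 132 ± 50.2 FPKM in CP libraries (SD, n = 3 each), and limma gave a log2 change of 0.33 (SE 0.42, adjusted p 0.683). Without Sal_CP replicate 3 the change was -0.074. Spermatid markers were also highest in Sal_CP replicate 3, and per 1000 FPKM of their sum Car2 stood at 2.53, 1.85 and 3.61 FPKM in Sal_CP libraries and at 2.34, 3.48 and 2.73 FPKM in CP libraries. On this scale, chosen after the values were seen, the groups overlapped too. The sum does not follow each of its markers, being next highest in Sal_CP replicate 2. Prm1, Prm2, Tnp1, Tnp2, Akap4 and Gapdhs were, like Car2, highest in Sal_CP replicate 3 and next in CP replicate 2. The other members, Odf1 and Smcp, were highest in Sal_CP replicate 2 and next in Sal_CP replicate 3. Smcp had the highest mean level of the list. In Sal_CP replicate 2 Smcp stood at 32993 FPKM and Odf1 at 16789 FPKM, against 16953 and 9114 FPKM in CP replicate 2. Clear and narrow cell markers, of cells that acidify the lumen, summed to 165, 69.6 and 75.3 FPKM in Sal_CP libraries. In CP libraries they summed to 119, 99.6 and 81.0 FPKM. The part of either marker set in the Car2 values was not tested.

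Car4 (chr11:84957786-84966044, plus strand), a carbonic anhydrase anchored to the outer face of the membrane, varied most among the 4 transporters tested. It stood at 2.77, 0.579 and 1.89 FPKM in Sal_CP libraries, against 0.386, 4.85 and 7.07 FPKM in CP libraries. CP replicate 1 was the lowest library and the other CP libraries the highest, so the groups overlapped. The means were 1.74 ± 1.102 FPKM in Sal_CP libraries and 4.10 ± 3.41 FPKM in CP libraries (SD, n = 3 each), and limma gave a log2 change of -0.64 (SE 0.55, adjusted p 0.575).

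Of 14 other carbonic anhydrases 4 were tested and 0 passed, 3 lying below 0 and 1 above (median log2 change -0.17). Car15, a membrane-anchored relative of Car4, averaged 1.84 ± 0.329 FPKM in Sal_CP libraries and 1.07 ± 0.220 FPKM in CP libraries (SD, n = 3 each), without overlap (log2 change 0.45, adjusted p 0.47 in limma). Car5b, a mitochondrial form, averaged 1.47 ± 0.547 FPKM in Sal_CP libraries and 1.99 ± 0.251 FPKM in CP libraries (log2 change -0.30, adjusted p 0.566 in limma). Of 25 genes of the vacuolar proton pump 24 were tested and 0 passed, with 21 below 0 and 3 above and a median of -0.17, where 60.5% of all tested genes lay below 0. After median of ratios rescaling that median was 0.0054. Atp6ap1, an accessory subunit, had the smallest unadjusted p of that list, with a log2 change of -0.74 (adjusted p 0.464 in limma), and Atp6v0e2, a small membrane subunit, came next with -0.53 (adjusted p 0.47).

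Slc22a5 (chr11:53864542-53891660, minus strand), the sodium-dependent carnitine transporter OCTN2, stood at 11.03, 8.01 and 9.61 FPKM in Sal_CP libraries, against 12.3, 9.91 and 12.8 FPKM in CP libraries. Sal_CP replicates 2 and 3 were below all CP libraries, but Sal_CP replicate 1 was above CP replicate 2. The means were 9.55 ± 1.51 FPKM in Sal_CP libraries and 11.7 ± 1.57 FPKM in CP libraries (SD, n = 3 each), and limma gave a log2 change of -0.27 (SE 0.27, adjusted p 0.616). Per 1000 FPKM of principal cell markers, which were lower in Sal_CP, it stood at 3.79, 3.02 and 4.56 FPKM in Sal_CP libraries and at 2.86, 2.30 and 2.82 FPKM in CP libraries, so that on this scale, chosen after the values were seen, every Sal_CP library was the higher. Slc22a21, a close paralog with which reads may be shared, stood at 5.19, 4.07 and 3.63 FPKM in Sal_CP libraries and at 4.78, 4.24 and 6.41 FPKM in CP libraries.

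Slc22a16, a carnitine transporter of testis and sperm, differed in the other direction. It stood at 18.5, 19.4 and 16.5 FPKM in Sal_CP libraries, against 9.92, 10.03 and 12.5 FPKM in CP libraries, without overlap, and limma gave a log2 change of 0.70 (SE 0.27, adjusted p 0.444). Slc22a5 over Slc22a16, a ratio chosen after the values were seen, was 0.598, 0.414 and 0.583 in Sal_CP libraries, against 1.24, 0.988 and 1.02 in CP libraries. Slc22a16 was thus the higher of the pair in every Sal_CP library, while in CP libraries their levels were close. Crot, the peroxisomal carnitine octanoyltransferase, stood at 5.46, 2.88 and 2.30 FPKM in Sal_CP libraries, against 9.17, 6.94 and 7.58 FPKM in CP libraries (log2 change -1.02, SE 0.30, adjusted p 0.338 in limma). Of the 18 genes listed for carnitine uptake and use 16 were in the table, 11 were tested and 0 passed, 6 lying below 0 and 5 above (median log2 change -0.12, and 0.041 after median of ratios rescaling).

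**Figure D2:**
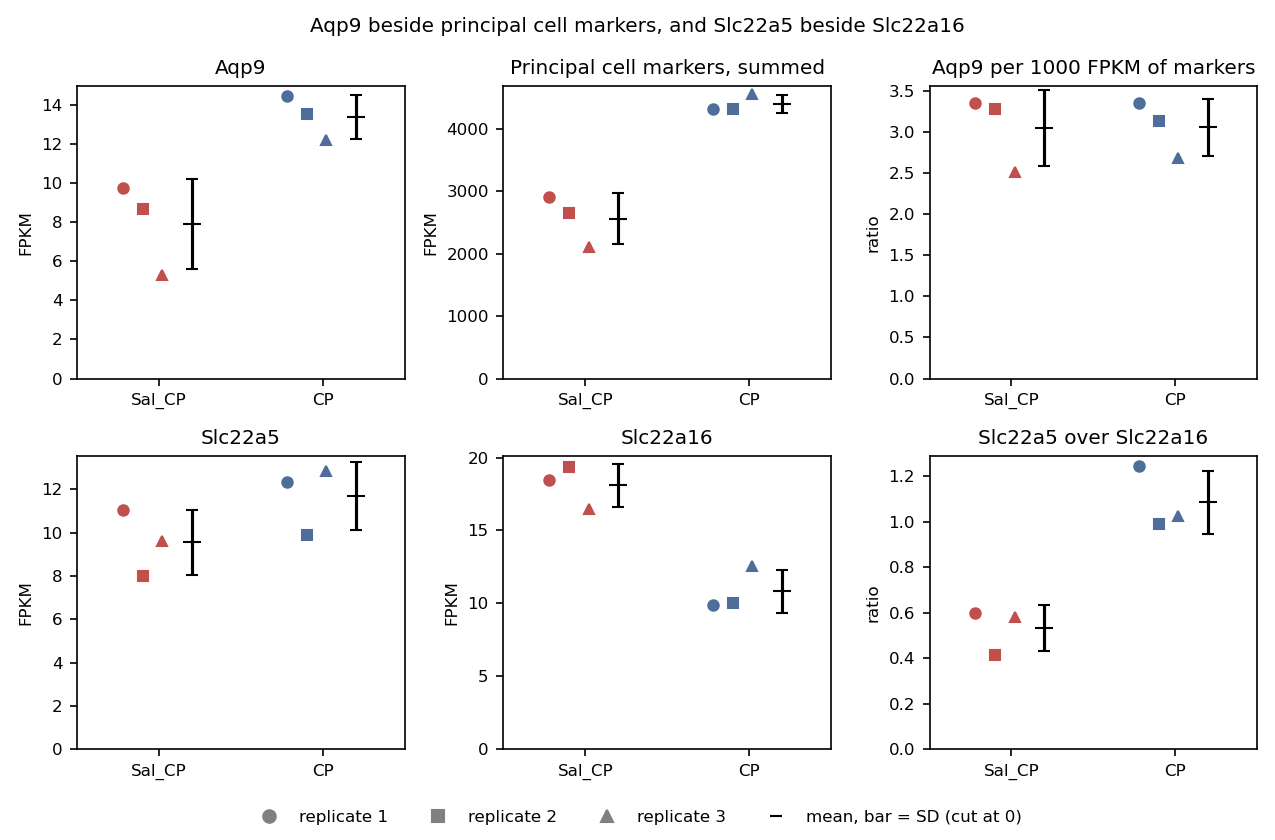
FPKM of Aqp9, summed principal cell markers, Slc22a5 and Slc22a16, and the ratios made from them (y axes, each from 0), in the 3 Sal_CP libraries (left) and the 3 CP libraries (right), with the mean and SD beside the points. Aqp9 per 1000 FPKM of principal cell markers averaged 3.05 in both groups. Slc22a5 over Slc22a16 was 0.414 to 0.598 in Sal_CP libraries and 0.988 to 1.24 in CP libraries.

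Among genes of sodium, potassium and chloride transport, which drive the fluid movement that aquaporins follow, 17 of 29 were tested and 0 passed. Of these, 13 lay below 0 and 4 above, with a median log2 change of -0.23 where all tested genes had -0.12. After median of ratios rescaling it was -0.058, where all genes had 0.017. Of the 17 tested, 6 were lower in every Sal_CP library than in every CP library, where 10% of all tested genes were. Among the 6, Clcn3 averaged 0.919 FPKM in Sal_CP libraries and 1.46 FPKM in CP libraries. It reached the mean needed to be tested only through CP. Kcnj16, an inwardly rectifying potassium channel subunit, stood at 0.217, 0.223 and 0.0829 FPKM in Sal_CP libraries, against 4.15, 1.35 and 1.20 FPKM in CP libraries (log2 change -1.35, adjusted p 0.206 in limma), and it reached the mean needed to be tested only through CP. Ano1, a calcium-activated chloride channel, averaged 6.14 ± 0.349 FPKM in Sal_CP libraries and 10.99 ± 3.05 FPKM in CP libraries (SD, n = 3 each; log2 change -0.72, adjusted p 0.444 in limma).

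**Figure D3:**
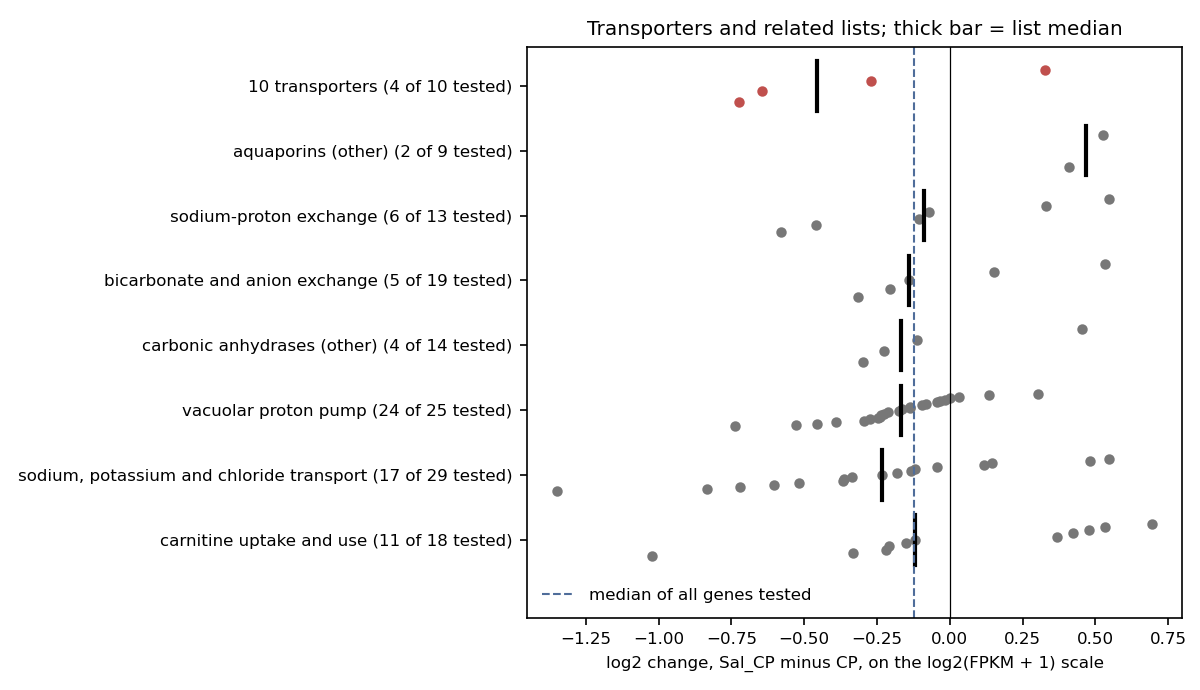
Log2 change of Sal_CP over CP on the log2(FPKM + 1) scale (x axis) for every tested gene of the transporters and the 7 pathway lists (rows), with each list's median and, as a vertical line, the median of all genes tested. The lists' medians lay between -0.46 for the 4 tested transporters and 0.47 for the other aquaporins, and no gene shown passed the test. After median of ratios rescaling the medians of sodium-proton exchange, bicarbonate and anion exchange, the vacuolar proton pump and carnitine genes lay above 0.

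The genes whose profile over the 6 libraries lay nearest were named for the 3 most abundant transporters, by the root mean square distance of centred log2(FPKM + 1) values. For Aqp9 they were Spns3 (0.0325), Gabrp (0.0675) and Cybc1 (0.0778), where the median gene was 0.399 away. For Car2 they were Fbxo2 (0.0598), Lrrc51 (0.0766) and Entr1 (0.0794), with a median of 0.692. For Slc22a5 they were Rhpn2 (0.0469), Cdk2 (0.0476) and Pdlim3 (0.0529), with a median of 0.31. These distances describe 6 libraries and carry no test.

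**Figure D4:**
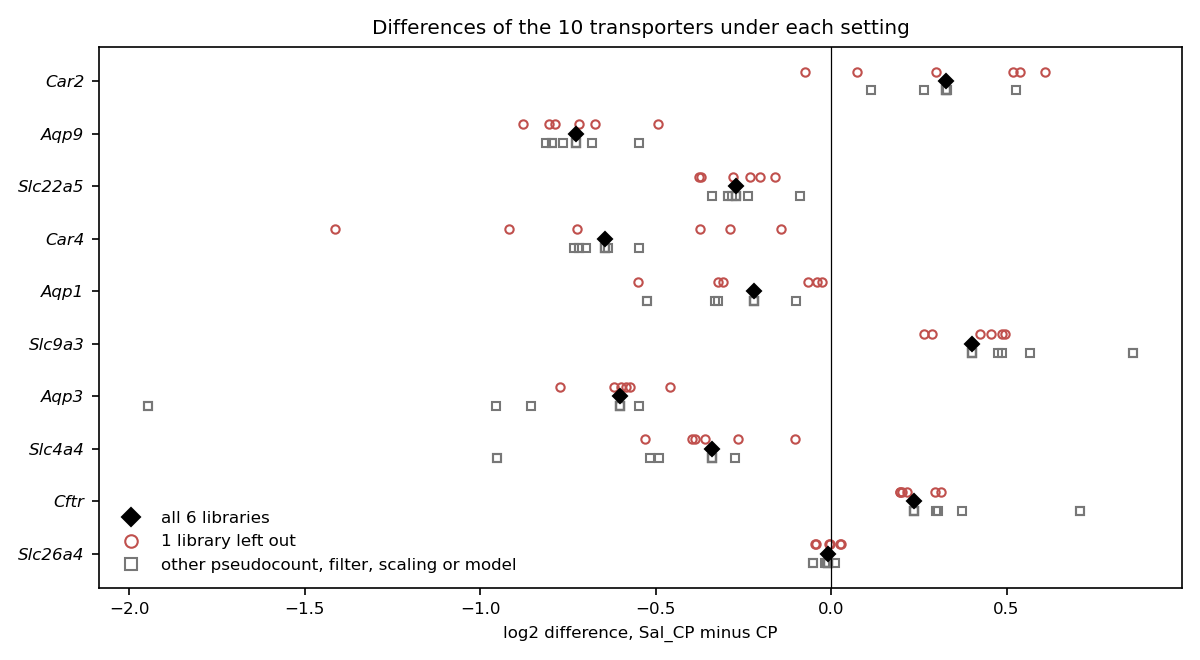
Log2 difference of Sal_CP over CP (x axis) of each of the 10 transporters (rows) in the reported fit and under 17 other ways of processing the values. Aqp9, Aqp3, Slc4a4, Car4, Aqp1 and Slc22a5 stayed below 0 and Slc9a3 and Cftr above 0 in all 17, while Car2 lay below 0 in 1 and Slc26a4 lay around 0. Changing only the filter, prior or replicate block cannot change the difference. Leaving out a library cannot reverse Aqp9, Aqp3 or Slc9a3, whose groups did not overlap.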

How the data were processed

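RNA of 6 libraries was sequenced as paired-end reads of 150 bases with a kit that keeps strand, per the labels' protocols. The authors deposited 1 table of FPKM per gene and library, made on GRCm38 per the submitters' processing notes. Aligner and quantifier are unnamed here: not given in the sources used here. Each deposited ratio equals the ratio of group mean FPKM in 26344 of 26344 genes with a finite ratio (tolerance 0.001), and the deposited log2 ratio, p-value and q-value are the authors' own comparison.

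From FPKM, log2(FPKM + 1) was tested with limma 3.58.1 (R 4.3.3, trend in the prior variance) on 12241 genes whose mean reached 1 FPKM, with Benjamini-Hochberg adjustment and a threshold of 0.05. Fold changes on this scale understate changes of low genes. Every transporter also had a two-sided exact permutation test over all 20 assignments. FPKM totals were 565944 to 697070 per library. Pearson correlations between libraries were 0.906 to 0.959 within groups and 0.878 to 0.950 between groups, so the ranges overlapped. The deposited values are no counts and only part of the low ones lay near whole fragments, so no count test was run. Fits were tested on simulated data. Gene positions come from GENCODE and upstream sequences from RefSeq (GRCm38.p6).

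The transporters and all lists were chosen with earlier results of these data known. All transporters are named, with the 2 genes of smallest unadjusted p in each of 7 pathway lists and the 3 nearest profiles of the 3 most abundant transporters. A gene that this rule names in the sodium-proton exchange list is not reported here. Alternatives changed the pseudocount, filter, scaling, prior and replicate block, and left out each library in turn. Clear cell, efferent duct, leukocyte and somatic testis markers were measured as well.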

Additional observations from a re-analysis of the deposited data

How the results depend on the processing

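The number of genes called over the whole table was 9 and moved with the processing. It was 0 with no filter (2249 genes at an unadjusted p below 0.05), 0 with a mean of at least 0.1 FPKM (2022), 0 after median of ratios rescaling (1742), 5 after quantile normalization, 280 with the replicate block, and 0 with a pseudocount of 0.1 and a mean of at least 0.1 FPKM (2083), a setting chosen after seeing the data. Leaving out 1 library gave 0 to 13, with 0 without Sal_CP replicate 1 (4531 at an unadjusted p below 0.05) and 1 without Sal_CP replicate 2. The cause was not tested. Deviations of same-numbered libraries correlated at 0.196, -0.115 and -0.0644. Such values do not settle whether equal numbers mark paired samples. In each of the 17 settings 0 transporters were called. The count of transporters without overlap was 3 and ranged from 3 to 5 when 1 library was left out, being 5 without Sal_CP replicate 1 and 5 without CP replicate 2. Car2 changed sign without Sal_CP replicate 3 (-0.074), with -0.074 to 0.61 over the libraries left out. Aqp9 ranged from -0.88 to -0.49, with adjusted p of 0.0738 to 0.871 in limma, and Car4 from -1.41 to -0.14. Median of ratios rescaling moved the median of all genes to 0.017, and 8 transporters kept their sign in all 17 settings. Several of these settings could not change a sign, namely those that changed only the filter, prior or replicate block. Of 119 list medians under alternatives, 114 lay within the replicate spread. The median of bicarbonate and anion exchange was 0.00073 without CP replicate 1, and that of carnitine genes 0.03 without CP replicate 1, 0.031 with a mean of at least 0.1 FPKM and 0.029 with the pseudocount of 0.1 as well. Slc26a4, and Aqp3 in Sal_CP, rest on few fragments, and 3 libraries a group limit any exact p to 0.1.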

Other observations

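Markers of further cell types, and 1 gene of the clear cell list, gave these values. Leukocyte markers summed to 755, 209 and 121 FPKM in Sal_CP libraries and to 409, 295 and 161 FPKM in CP libraries, so the groups overlapped. Efferent duct markers summed to 17.4, 13.2 and 9.57 FPKM in Sal_CP libraries and to 17.4, 15.8 and 20.1 FPKM in CP libraries. Sertoli, Leydig and myoid markers summed to 6.49 to 12.6 FPKM in Sal_CP and to 13.8 to 15.9 FPKM in CP, without overlap. Of these 11 markers 4 reached a mean of 1 FPKM, all with log2 changes below 0 and 0 called, and Acta2 had the highest level. Insl3, Sox9 and Star reached that mean only through the CP libraries, so their direction was largely set by the filter. Members differed in direction, as Amh was higher in every Sal_CP library and Cyp17a1 and Wt1 had higher means in Sal_CP. Foxi1, the transcription factor that defines proton-secreting clear cells, stood at 46.8, 23.4 and 22.9 FPKM in Sal_CP libraries and at 36.7, 25.6 and 21.03 FPKM in CP libraries, and overlapped.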
